A study of Mus musculus with 6 samples.

Results

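Substance P signalling was followed through 6 genes, chosen by symbol from the 36333 rows of a table of read counts. They are the peptide precursor genes Tac1 and Calca, the receptor genes Tacr1 and Calcrl, the receptor partner Ramp1 and the peptidase gene Mme. The set was put together because Tac1 had no count in any saline library and a high count after cerulein, so the cerulein against saline values of all 6 genes are given as a description, without a p-value. The counts come from pancreas of wild-type mice, with 3 samples injected intraperitoneally with saline and 3 with cerulein, an analogue of cholecystokinin that overstimulates acinar cells and produces acute pancreatitis. The cerulein mice received 10 injections of 200 µl, dosed at 200 µg/kg/h, and the pancreas was collected once the injections were complete. The sources used here do not give strain, age or sex. Nothing states that the samples are separate mice, so p-values measure only the spread between these samples.

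Tac1 encodes preprotachykinin, which is cut into substance P and, in some splice forms, neurokinin A. Substance P acts on the NK1 receptor, the product of Tacr1, a Gq-coupled receptor that makes vessels leak and draws in leukocytes, and it has long been studied as a mediator of pancreatitis. Calca encodes CGRP, a vasodilator that sensory nerves often release together with substance P. The CGRP receptor is a pair of Calcrl and Ramp1. Neprilysin, the product of Mme, is a membrane peptidase that cuts substance P and ends its action.

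The stretches of Tac1 that encode the peptides are shown because the counts concern the whole gene and not one peptide. They were read from GENCODE M21 transcripts (GRCm38, the assembly behind mm10), 5′ to 3′ on the plus strand. The substance P stretch lies in exon 3 at chr6:7556732-7556773 and the neurokinin A stretch, in exon 5 of a transcript with 6 exons, at chr6:7559101-7559139. Capitals mark the 11 codons of substance P and the 10 codons of neurokinin A, and lower case the codons that follow, for the site of cleavage and amidation.
substance P: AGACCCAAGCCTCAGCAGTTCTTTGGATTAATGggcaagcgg
neurokinin A: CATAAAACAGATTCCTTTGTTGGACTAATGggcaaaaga

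Of 5 GENCODE transcripts of Tac1, 3 encode substance P, and 2 of these encode neurokinin A too. Of 7 Calca transcripts, 1 encodes CGRP and 2 encode calcitonin in its place, located by a short run of residues of each peptide. A count per gene does not separate these products, so a Calca count may stand for either hormone. None of the 6 genes overlaps another row of the table in RefSeq (GRCm38.p6), and none shares an exon with another GENCODE gene, so reads of a neighbour or an antisense gene are not mixed into them by position.

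The promoters of Tac1 and Calca are shown because these were the 2 genes of the set with higher levels in every cerulein library. Each window holds the 250 bases before the RefSeq gene start (GRCm38.p6), at chr6:7554811-7555060 on the plus strand for Tac1 and chr7:114636358-114636607 on the minus strand for Calca, whose start in that table lies inside the span of the gene. Capitals mark matches to 3 motifs searched on both strands, which are the short cyclic AMP response element TGACG (on the other strand it reads CGTCA), the E-box CACGTG and the AP-1 site TGACTCA, which reads on the opposite strand as TGAGTCA. The full cyclic AMP response element TGACGTCA, which contains the short one, was searched too.
Tac1: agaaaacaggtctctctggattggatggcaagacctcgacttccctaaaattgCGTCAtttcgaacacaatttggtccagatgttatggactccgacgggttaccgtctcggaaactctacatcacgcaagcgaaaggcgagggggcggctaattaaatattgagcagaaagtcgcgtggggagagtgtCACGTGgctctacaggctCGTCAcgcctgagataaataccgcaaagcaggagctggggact
Calca: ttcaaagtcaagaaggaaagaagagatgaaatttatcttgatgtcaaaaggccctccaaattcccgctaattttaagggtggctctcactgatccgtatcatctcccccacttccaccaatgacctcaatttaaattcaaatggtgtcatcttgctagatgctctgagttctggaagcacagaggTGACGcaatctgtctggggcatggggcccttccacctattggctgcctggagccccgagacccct

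The Tac1 window held 2 short elements, starting 197 and 43 bases before the gene start, and 1 E-box starting 61 bases before it. Calca held 1 short element, starting 65 bases before its listed start, which lies inside the span of the gene. Neither window held a full cyclic AMP response element or an AP-1 site by these letters. Among 32851 promoter windows of the same length, 17.8% held the short element, 6.02% the E-box, 1.55% the full element and 4.46% an AP-1 site. A match is a run of letters and not a measured binding site.

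Libraries held between 5335117 and 7610775 counts. Levels are given as CPM, the count relative to library size after scaling by TMM, a factor that puts libraries on a common scale. Saline replicate 1 stood apart in the neutrophil markers, with a summed 209.9 CPM against 20.5 and 42.2 CPM in the other saline libraries. Its acinar marker sum was 307110 CPM against 585199 and 589201 CPM, and its counts differed most from the other saline libraries, with a chi-square per degree of freedom of 41.8 and 35.0 against 7.88 between those libraries. Of 10 acinar markers 9 were lower after cerulein, and their sum was still at least 182004 CPM in every library, so the defining genes of the labelled tissue were present. In bulk tissue, fewer cells of a type and less RNA per cell cannot be told apart. Of 12441 genes tested with edgeR, 28.7% were called higher and 27.1% lower after cerulein at an adjusted p under 0.05, 55.8% in all, and 18.3% and 17.7% were called with at least a 2-fold change. Groups did not overlap for 32.4% of genes with cerulein above and 30.6% with cerulein below. Scaling moved this balance, with 3574 higher and 3373 lower under TMM. Upper-quartile factors gave 2895 higher and 4190 lower, and library size without a factor gave 5181 higher and 1449 lower. These 2 alternatives moved the median log2 change of all genes from -0.0009 to -0.20 and 0.56. Of the 6 genes, 4 passed the filter on low counts (Tac1, Calca, Calcrl and Ramp1), of which 2 were called higher (both at least 2-fold and without overlap of the groups) and 1 lower. Nothing is read from that count, since the same contrast chose the set.

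Tac1 (chromosome 6, 7555061 to 7562978) had 0 counts in each of the 3 saline libraries, and 148, 212 and 68 counts were found in cerulein replicates 1, 2 and 3. Scaled, the cerulein libraries stood at 17.5, 24.8 and 8.59 CPM, a mean of 17.0 ± 8.12 CPM (SD, n = 3). Every cerulein library was far above every saline library, and cerulein replicate 3 was the lowest of its group. The 3 saline libraries together allow up to 3 counts, or 0.191 CPM over the group. Against that floor the summed cerulein counts of Tac1 were 90.0-fold higher, 6.49 on the log2 scale. This bound covers counting error in saline alone and leaves out the spread between libraries of either group. Without saline replicate 1, which leaves fewer saline reads for the same floor, the bound was 5.54 on the log2 scale.

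Calca (chromosome 7, 114625981 to 114636910) had 6, 0 and 0 saline counts and 34, 33 and 41 cerulein counts, replicates 1, 2 and 3 in order. These were 0.813, 0 and 0 CPM in saline and 4.02, 3.86 and 5.18 CPM in cerulein. The groups did not overlap, and all saline counts came from replicate 1. The summed counts, 108 against 6, gave a ratio of 11.4 after scaling, with an exact 95% interval of 5.05 to 31.6. Such intervals hold for counting error alone and leave out the spread between libraries, because the counts of the 3 libraries of a group were summed. PCR copies cannot be told from separate molecules here, so even the counting error may be larger. Without saline replicate 1, Calca was at 0 in saline, and the bound against 3 counts was 3.56 on the log2 scale. The cerulein libraries spread less for Calca, with a coefficient of variation of 16.5%, than for Tac1, with 47.9%, and the library lowest in Tac1 was the highest in Calca.

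**Figure D1:**
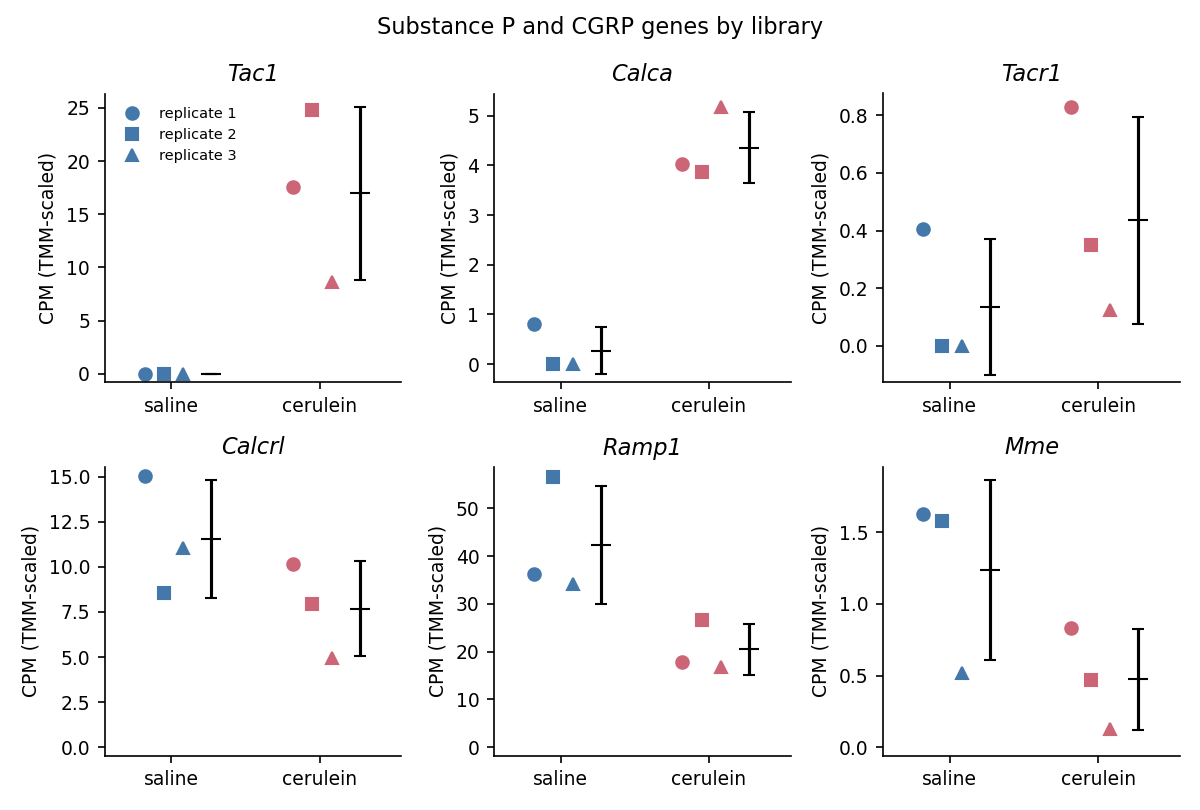
Level of each gene in CPM on linear axes, with 1 point per library (blue saline, red cerulein, marker shape the replicate number) and the mean ± SD of 3 libraries in black. Tac1 is at 0 in all saline libraries and between 8.59 and 24.8 CPM in cerulein, and Calca and Tac1 are the panels in which every cerulein point lies above every saline point.

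The NK1 receptor gene Tacr1 (chromosome 6, 82402003 to 82560104) was close to the limit of detection. It had 3, 0 and 0 saline counts and 7, 3 and 1 cerulein counts, in replicate order. The groups overlapped. The ratio of sums was 2.31 with an exact 95% interval of 0.611 to 12.9, so a difference was not detectable at this depth. All saline counts came from replicate 1, and without it the bound against 3 saline counts was 0.26 on the log2 scale.

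Calcrl (chromosome 2, 84330626 to 84425405), the seven-helix part of the CGRP receptor, had 111, 38 and 43 counts in saline and 86, 68 and 39 in cerulein, replicates 1, 2 and 3 in order. The CPM were 15.03, 8.56 and 11.1 in saline and 10.2, 7.96 and 4.92 in cerulein. The groups overlapped, with cerulein replicate 1 above saline replicate 2. The fitted log2 change was -0.60 ± 0.29 (SE), and over 14 alternative settings it lay between -0.84 and -0.07, the last with library size alone. Calcrl is well known from endothelium, and the summed level of 12 endothelial markers was 215 to 233 CPM in saline and 210.3 to 256 CPM in cerulein. Single markers went in both directions. Eng and Esam were called higher, at 0.53 and 0.67 on the log2 scale, Kdr and Vwf lower, at -0.68 and -0.80, and 8 were not called. The part of endothelial cells in the Calcrl values was not tested.

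Ramp1 (chromosome 1, 91179822 to 91225196), the partner that makes Calcrl a CGRP receptor, was the most abundant of the set. It had 267, 251 and 133 counts in saline and 151, 228 and 133 in cerulein, replicates 1, 2 and 3 in order. Scaled, saline stood at 36.2, 56.5 and 34.2 CPM and cerulein at 17.9, 26.7 and 16.8 CPM, so that every cerulein library lay below every saline library. The fitted log2 change was -1.04 ± 0.23 (SE), between -1.27 and -0.47 over 14 alternatives. The value nearest 0 came from library size alone. Summed smooth muscle and pericyte markers, of cells in which Ramp1 is known, were 80.9 to 96.7 CPM in saline and 94.2 to 117 CPM in cerulein. None of the 8 tested was called. The part of these cells in the Ramp1 values was not tested.

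Mme (chromosome 3, 63295211 to 63383713) had 12, 7 and 2 counts in saline and 7, 4 and 1 in cerulein, replicates 1, 2 and 3 in order. The CPM were 1.63, 1.58 and 0.514 in saline and 0.828, 0.468 and 0.126 in cerulein. The groups overlapped, since saline replicate 3 lay below cerulein replicate 1. The ratio of the sums, 12 against 21 counts, was 0.360 with an exact 95% interval of 0.162 to 0.767 for counting error. Neprilysin is also a surface protein of neutrophils and stromal cells. Neutrophil markers were 20.5 to 209.9 CPM in saline and 58.2 to 128 CPM in cerulein, and stellate cell and fibroblast markers 439 to 502 CPM and 426 to 598 CPM. Their part in the Mme values was not tested.

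Levels of different genes were compared per kilobase of annotated exon, since longer genes give more reads. The length was the union of the exons of all GENCODE transcripts of a gene. For Tac1 it was 3399 bases, whereas the protein-coding transcripts of Tac1 are 434 to 1230 bases long. The order between genes therefore depends on the annotation. In saline the order of mean levels in CPM per kilobase was Ramp1 at 14.0 ± 4.09, Calcrl at 2.37 ± 0.67, Calca at 0.161 ± 0.279, Mme at 0.107 ± 0.0544 and Tacr1 at 0.0209 ± 0.0361 (SD, n = 3), with Tac1 at 0. Ramp1 lay above Calcrl and Calcrl above Calca in every saline library, whereas Calca overlapped Mme and Mme overlapped Tacr1. In cerulein the order was Ramp1 at 6.77 ± 1.79, Tac1 at 4.99 ± 2.39, Calca at 2.59 ± 0.43, Calcrl at 1.57 ± 0.54, Tacr1 at 0.0671 ± 0.0552 and Mme at 0.0411 ± 0.0304 (SD, n = 3). Tac1 overlapped both Ramp1 and Calca, Calca lay above Calcrl in every cerulein library, and Tacr1 and Mme overlapped. In saline Ramp1 and Calcrl stood above the other 4 genes, and in cerulein the means of both peptide genes lay between those of Ramp1 and Calcrl. On the CPM scale Tac1 remained a gene of moderate level, at rank 5294 of the 12441 tested genes by its cerulein mean.

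Tac1 was set beside other genes without saline reads. Among all genes of the count file, 1839 were at 0 in all saline libraries and had a cerulein count, 107 of them with at least 10 and 6 with at least 100 counts in the cerulein libraries together. Tac1 was at rank 2 of these by summed count and at rank 1 of the 703 that RefSeq lists as protein-coding. The lncRNA gene 1700016G22Rik had 691 counts, Tac1 428, the lncRNA gene Gm34642 333, Crct1, a gene of the epidermal cornified layer, 165, and the annexin gene Anxa10 163. The choice of Tac1 rested on these same counts, so the ranks are a description.

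**Figure D2:**
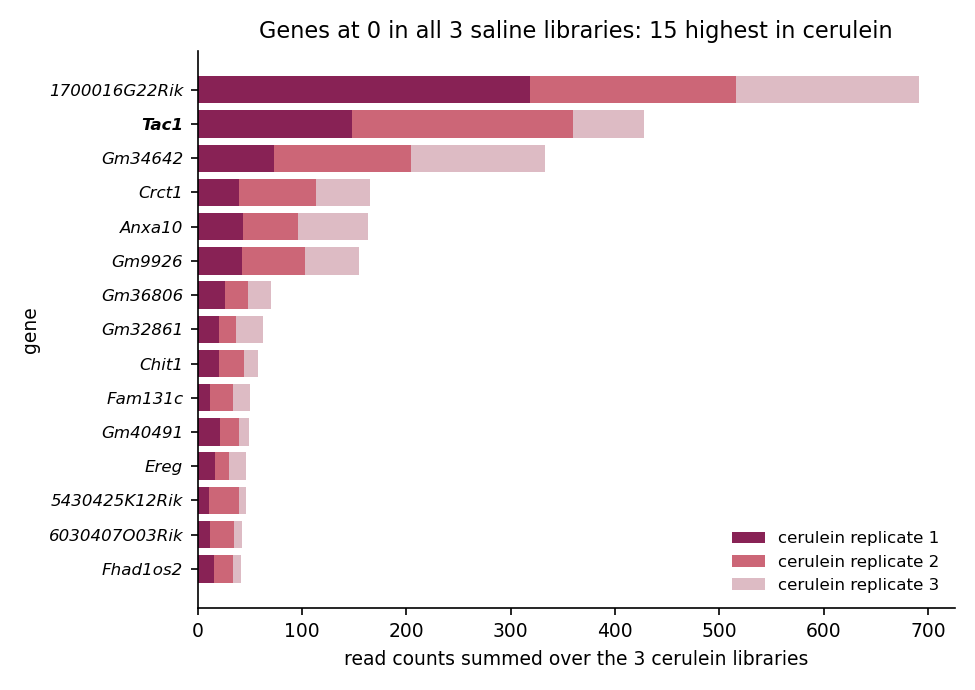
Read counts in the 3 cerulein libraries, stacked, for the 15 genes with the highest sums among those at 0 in all 3 saline libraries. Tac1, in bold, is in second place with 428 counts, of which cerulein replicate 2 gave 212.

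The genes most like Tac1 were found by Euclidean distance in log2(CPM + 1) over the 6 libraries. The nearest of the tested genes was Aloxe3, an epidermal lipoxygenase gene, at a distance of 1.002, with 1, 1 and 0 counts in saline and 166, 137 and 116 in cerulein. It was followed by Prss56, a serine protease gene, at 1.11, the keratin gene Krt17 at 1.19, the GABA receptor subunit gene Gabrq at 1.23 and Ankrd1, a YAP target gene, at 1.25. Krt17 had 1, 0 and 0 counts in saline and 197, 202 and 155 in cerulein.

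Markers of cells that could carry Tac1 and Calca were summed in each library. In the body, both are best known from sensory neurons, whose cell bodies lie outside the pancreas. The 15 neuron markers summed to between 4.96 and 7.97 CPM in saline and between 12.8 and 16.0 CPM in cerulein. The sensory neuron sodium channel genes Scn9a and Scn10a were at 0 in all libraries, and Chat had 1 count in all. Only 2 neuron markers passed the filter on low counts, and both did so only through the cerulein libraries. Their rise was thus largely set by the filter, and no p-value is given. The neuronal beta-tubulin gene Tubb3 had 6, 3 and 3 counts in saline and 36, 56 and 72 in cerulein. Its log2 change was 3.09 ± 0.44 (SE). The ubiquitin hydrolase gene Uchl1 had 2, 5 and 2 counts in saline and 24, 39 and 25 in cerulein, at 2.55 ± 0.53 (SE). Uchl1 shares exon positions with the antisense gene Uchl1os. The other 13 markers together stood at 3.15 to 6.69 CPM in saline and 3.79 to 5.68 CPM in cerulein, and these ranges overlap. Among them Stmn2 went the other way, with 22, 9 and 9 counts in saline and 7, 7 and 4 in cerulein. In CPM its groups did not overlap, at 2.03 to 2.98 in saline and 0.505 to 0.828 in cerulein. Stmn2 did not pass the filter and was not tested. The 7 glia and Schwann cell markers summed to 48.8 to 73.8 CPM in saline and 95.04 to 102 CPM in cerulein, most of it Mbp, which rose by 0.83 ± 0.17 (SE, adjusted p = 8.82e-04, edgeR). Cdh19, another glial marker, was at -0.999 ± 0.669 (SE) and did not pass.

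The 10 islet markers summed to 828, 1939 and 1927 CPM in saline and to 1589, 1688 and 1019 CPM in cerulein, listed by replicate number. Most of the sum came from Ins1 and Ins2. Of 9 islet markers tested, 0 were called higher and 6 were not called. Slc30a8, Pcsk1n and Gcg were called lower, at -2.28, -0.76 and -0.64 on the log2 scale. Within cerulein, replicate 3 was the lowest and replicate 2 the highest for both Tac1 and the islet sum, and the acinar, duct and smooth muscle sums had the same order. The neuron, glia, endothelial, stellate cell and neutrophil sums did not. Neuron and neutrophil sums were highest in replicate 3, at 16.0 and 128 CPM. Nothing is read from an order over 3 libraries. The 8 duct markers summed to 163 to 196 CPM in saline and 942 to 1190 CPM in cerulein. The part of these cells in the Tac1 and Calca values was not tested.

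**Figure D3:**
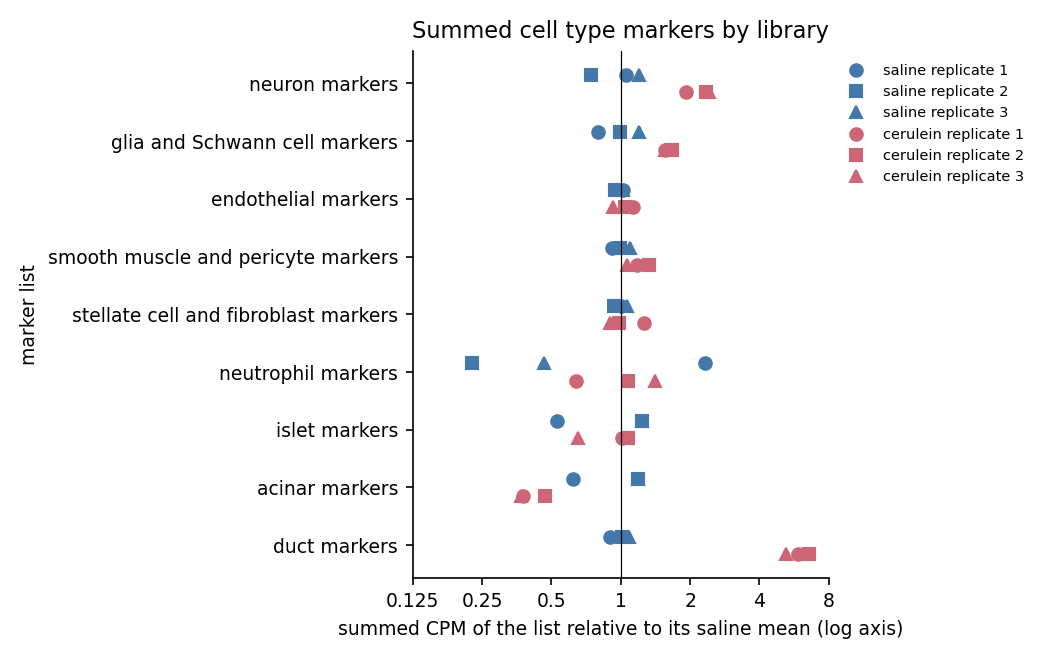
Summed CPM of each cell type marker list in every library, divided by the list's saline mean, on a log axis (blue saline, red cerulein, shape the replicate number). Duct markers stand highest after cerulein and acinar markers lowest, while endothelial, stellate cell and islet sums of the groups overlap. Single endothelial and stellate cell markers went in both directions.

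The other genes of the pathway were taken from lists of tachykinins, calcitonin family peptides and receptors, peptidases, processing enzymes, NK1 receptor coupling and sensory nerve activation. Of 46 such genes 31 were tested, and 11 were called higher (35.5%) and 7 lower (22.6%), beside 28.7% and 27.1% of all genes tested. Library size without a factor gave 15 higher and 3 lower, and upper-quartile factors gave 8 and 8. The median log2 change of the 31 tested pathway genes was -0.07, against -0.0009 for all genes tested. The strand setting of the counting is unknown, so reads of antisense genes may be included in Ace, Dpp4, Pcsk2, Plcb1, Plcb3, Prkca and Ramp3. Pam, Prkce, Ramp2, Ece2 and Arrb2 share exon positions with another GENCODE gene on the same strand.

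The other tachykinin genes were barely counted. Tac2, which encodes neurokinin B, was at 0 in all libraries, Tac4 had 1 count in all, and the receptor genes Tacr2 and Tacr3 had 4 and 6 counts in all. Calcb, which encodes the other form of CGRP and lies 79.6 kb from Calca, had 1 count, in cerulein replicate 1. Calcr, the calcitonin receptor gene, had 1 count as well. Iapp, the amylin gene, lies inside the span of Slco1a5 and was at 0, which is treated as no measurement because reads there may have been left uncounted as ambiguous.

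The adrenomedullins, peptides of the calcitonin family that also signal through Calcrl, both rose. Adm2 had 104, 58 and 85 counts in saline and 1222, 1468 and 1106 in cerulein, replicates 1, 2 and 3 in order, and went from 16.3 ± 4.81 to 152 ± 17.3 CPM (SD, n = 3 each). All cerulein libraries lay above all saline libraries. The fitted change was 3.23 ± 0.21 on the log2 scale (SE, adjusted p = 6.32e-08, edgeR). Adm went from 3.62 ± 1.37 to 10.4 ± 2.93 CPM, or 1.54 ± 0.33 on the log2 scale (SE, adjusted p = 0.00136, edgeR). Both calls held in all 14 alternatives.

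Of the Calcrl partners, Ramp1 was described above, and Ramp2, which makes Calcrl an adrenomedullin receptor, did not pass the threshold at 0.28 ± 0.30 (SE). Ramp3, which also gives an adrenomedullin receptor, was called higher at 1.15 ± 0.44 (adjusted p = 0.0407, edgeR). It had 19 counts in saline and 69 in cerulein, and passed the filter on low counts only through the cerulein libraries. The call was lost in 9 of 14 alternatives, among them those without saline replicate 1, 2 or 3 or cerulein replicate 1 or 3, where the log2 change was 0.90 to 1.29 and the adjusted p 0.0610 to 0.157. Crcp, a cytoplasmic component of the CGRP receptor that is also an RNA polymerase III subunit, had a log2 increase of 1.70 ± 0.22 (adjusted p = 2.34e-05, edgeR), from 8.45 ± 1.73 to 27.6 ± 5.52 CPM.

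Of 5 tested peptidases other than neprilysin, 1 rose, 2 fell and 2 did not pass. Anpep, aminopeptidase N, had 898, 440 and 542 counts in saline and 210, 186 and 256 in cerulein. It went from 120.03 ± 20.2 to 26.3 ± 5.43 CPM, with no overlap, and the fitted log2 value was -2.19 ± 0.19 (SE, adjusted p = 7.85e-07, edgeR). Ace, the angiotensin-converting enzyme, rose by 1.19 ± 0.19 (adjusted p = 1.70e-04, edgeR). Dpp4, which trims the amino terminus of substance P, was called lower at -0.88 ± 0.34 (adjusted p = 0.0443, edgeR). Its call was lost in 9 of 14 alternatives, among them those without saline replicate 1 or 3 or any 1 cerulein library, where the log2 change was -0.98 to -0.47 and the adjusted p 0.0506 to 0.303. Ece1, the endothelin-converting enzyme that cuts internalised substance P and CGRP, was at -0.12 ± 0.15 (SE) and Ece2 at 0.55 ± 0.22 (SE). Ece2 just missed the threshold (adjusted p = 0.0507, edgeR), its groups did not overlap, and it was called higher in 6 of 14 alternatives, among them that without saline replicate 2 (adjusted p 0.00113 to 0.268 over all 14).

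Of 4 tested enzymes that mature neuropeptides, 1 was called higher and 1 lower. Pam, which amidates the carboxyl ends of substance P and CGRP, was called higher at 0.52 ± 0.18 (adjusted p = 0.0225, edgeR), and lost the call with upper-quartile factors and when saline replicate 1, or cerulein replicate 2 or 3, was left out (without a library, log2 change 0.38 to 0.53, adjusted p 0.0587 to 0.0925). Pcsk2, a prohormone convertase, was called lower at -0.82 ± 0.23 (adjusted p = 0.00820, edgeR), which was lost with library size alone at -0.25. Its partner Pcsk1 was at -0.27 ± 0.29 (SE) and Cpe at 0.59 ± 0.24 (SE), neither past the threshold. Cpe was called higher in 4 of 14 alternatives, among them that without saline replicate 3.

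Among 13 genes of NK1 receptor coupling, 3 rose, 4 fell and 6 did not pass. Phospholipase C genes went in both directions, with Plcb3 rising by 0.84 ± 0.18 and Plcb1 and Plcb4 at -1.52 ± 0.21 and -1.45 ± 0.19 (SE, adjusted p = 0.00153, 5.43e-05 and 2.96e-05, edgeR). So did the protein kinase C genes, with Prkcd rising by 1.33 ± 0.16 and Prkce at -1.10 ± 0.19 (adjusted p = 1.58e-05 and 2.82e-04, edgeR). The call of Prkce was lost with library size alone, at -0.54. The receptor kinase gene Grk2, listed in the table under its older symbol, rose by 0.94 ± 0.14 (adjusted p = 7.10e-05, edgeR). The arrestin gene Arrb1, which takes part in receptor internalisation, was called lower at -0.48 ± 0.16 (adjusted p = 0.0201, edgeR). That sign turned with library size alone, to 0.11, and the call was lost when saline replicate 3, or cerulein replicate 2 or 3, was left out (log2 change -0.47 to -0.41, adjusted p 0.0651 to 0.0954). The G protein genes Gnaq and Gna11 did not pass, at -0.07 ± 0.15 and -0.32 ± 0.15 (SE). Gna11 was called lower with upper-quartile factors and without saline replicate 1.

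Of 10 genes of sensory nerve activation 4 were tested, and 2 rose. F2rl1 encodes PAR2, a receptor opened by trypsin and known on acinar cells, duct cells and sensory nerves. It had 43, 25 and 17 counts in saline and 286, 262 and 311 in cerulein, without overlap, and its log2 increase was 2.69 ± 0.20 (adjusted p = 2.33e-07, edgeR). Trpv1, the capsaicin receptor of sensory neurons, had 3, 0 and 4 counts in saline and 0 in each cerulein library, Trpa1 had 1 count in all, and Kng1 was at 0 throughout. Bdkrb2, a bradykinin receptor gene, and Trpv4 did not pass, at 0.47 ± 0.30 and -0.08 ± 0.33 (SE).

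**Figure D4:**
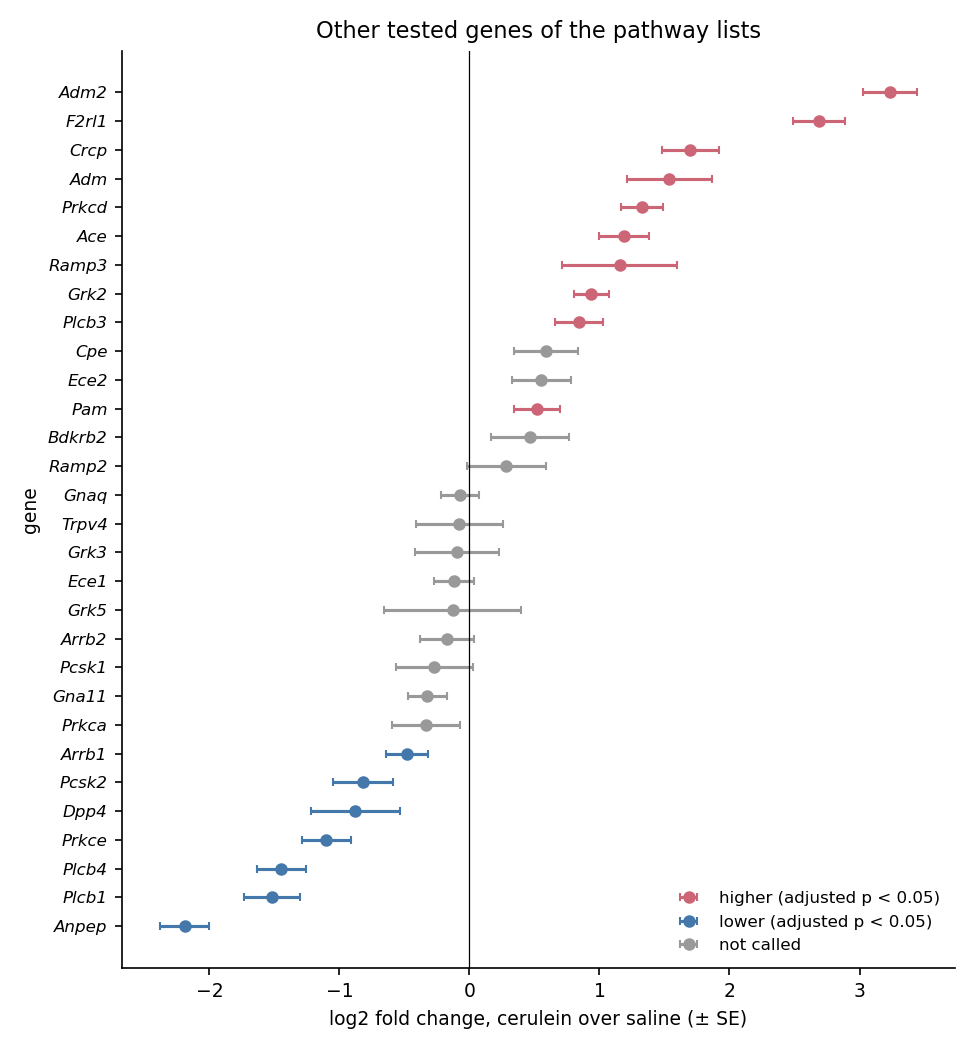
Log2 fold change (cerulein over saline, ± SE from edgeR) of 30 tested pathway genes outside the set of 6, red where called higher, blue where called lower and grey where not called. Adm2 and F2rl1 stand at the top with 3.23 and 2.69, and Anpep at the bottom with -2.19.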

How the data were processed

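The values are unnormalized counts of reads per gene that the authors deposited, 1 column per library. Trimmomatic, STAR, HTSeq and mm10 are named, without versions, in the submitters' processing notes. Per the labels' protocols, TRIzol RNA was made into libraries with a stranded mRNA kit, and the strand setting of the counting is not given. Counts were used unchanged. Genes were filtered with filterByExpr (minimum count 10, minimum total 15), scaled by TMM and tested with the two-sided quasi-likelihood test of edgeR 4.0.16 (R 4.3.3), with Benjamini-Hochberg adjustment over all 12441 genes tested. Standard errors were derived from the F statistic. The code was tested on simulated data. Alternatives used other scalings and filters, DESeq2 1.42.0, limma-voom 3.58.1, each library left out, and the replicate number as a block. The 6 genes and all lists were chosen with earlier results of these data known. Beyond the 6, genes named were those called with at least a 2-fold change, the 5 nearest to Tac1, and the 5 highest without saline counts. Pcsk2, Pam, Dpp4, Plcb3, Grk2, Arrb1, Mbp, Stmn2, Kdr, Vwf, Eng, Esam and genes not called were added after their values were seen. So were the markers Slc30a8, Pcsk1n, Gcg, Col1a1, Col3a1, Vim, Dcn and Fbln1. Of 143 list genes, 141 matched by symbol and 2 by an older symbol. Libraries of a group differed by more than sampling noise (chi-square per degree of freedom 7.42 to 41.8), so each counted as 1 replicate. Some listed genes are counted in the list totals and are not reported here by name.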

Additional observations from a re-analysis of the deposited data

How the results depend on the processing

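With library size alone, genes called lower numbered 1449 in place of 3373 and pathway genes called lower 3 in place of 7. The log2 ratio of summed counts then became 7.03 for Tac1 (a bound), 1.75 for Tacr1, -0.93 for Mme, 4.04 for Calca, -0.12 for Calcrl and -0.47 for Ramp1, against 6.49, 1.21, -1.47, 3.50, -0.66 and -1.01 with TMM, and none changed sign. Leaving out 1 library gave 5.54 to 6.81 for Tac1, 0.26 to 1.64 for Tacr1 (the lowest, without saline replicate 1, is a bound against 3 counts), -2.12 to -1.03 for Mme and 3.03 to 3.60 for Calca. Tests do not enter these ratios, so DESeq2, limma-voom and the block gave no value for them. With the replicate number as a block, calls were 10 higher and 6 lower for pathway genes, and for all genes 3673 higher and 3401 lower. Same-numbered libraries deviated together for numbers 1 and 2 (r = 0.202 and 0.24 across genes) and not for 3 (r = -0.168), so the numbers were not taken as pairs. Depth limits what can be said of Tacr1 and Mme, with 14 and 33 counts in all, and of pathway genes with a few counts.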

Other observations

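The rows next to Tac1 on chromosome 6 were little counted. Gm35051, an lncRNA gene 64.5 kb after Tac1, had 4, 3 and 0 counts in saline and 11, 6 and 8 in cerulein, and Gm19272, 175.5 kb before it, had 1 count in all. Beside Calca, Cyp2r1, which encodes a vitamin D hydroxylase and lies 62.9 kb away, had 6, 1 and 3 counts in saline and 4, 3 and 7 in cerulein. Next to Calcrl, Tfpi, the tissue factor pathway inhibitor gene 7.4 kb away, was at 0.75 ± 0.35 (SE) on the log2 scale and was not called. Next to Tacr1, Pole4, a DNA polymerase epsilon subunit gene 56.4 kb away, was called higher at 1.30 ± 0.24 (SE). These genes were named for their position alone.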
